A study of Oryza sativa with 3 samples.

Results

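MYB proteins are plant transcription factors that bind DNA through repeats of the MYB domain. Many of them act in stress: they switch on or off genes for protective proteins, hormone synthesis, cell division and phenolic compounds after cold, heat, drought, salt or attack. In rice, several are known from plants that over-express or lack them, mostly through effects on cold, heat, drought or salt tolerance. The genes described here are 9 stress-related MYB loci of the 29690 genes on the array, taken by the locus ID in the probe name: MYB4 (Os04g0517100), MYB2 (Os03g0315400), MYB3R-2 (Os01g0841500), MYB30 (Os02g0624300), MYB55 (Os05g0553400), MYB48 (Os01g0975300), MYB91 (Os12g0572000), MYB6 (Os04g0676700) and JAMYB (Os11g0684000). They have 17 of the 42418 gene probes, and all 17 passed the filter on dim probes.

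RNA came from roots of 6-day-old dark-grown rice seedlings (Oryza sativa, cultivar TN67) treated with 1 mM vanadate, a vanadium salt that blocks P-type ATPases and phosphatases, or with water. There were 3 biological replicates. In each, RNA of 1 h and 3 h of exposure was pooled, and the vanadate pool, labelled with Cy5, was hybridised against the water pool, labelled with Cy3, on 1 array. The comparison asked which root transcripts differ under vanadium stress. The dyes were exchanged on 0 arrays, so a dye effect common to all arrays cannot be told apart from the treatment. The times cannot be separated, and fewer cells of a type cannot be told apart from less RNA per cell.

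Log2 ratios are vanadate over water. A log2 level is the normalised log2 intensity of one channel, and levels of different probes are not comparable. A call means an adjusted p under 0.05 in limma, with Benjamini-Hochberg adjustment over 31158 tested probes. A gene is represented by its brightest tested probe. Between 69.0% and 76.1% of gene spots were well above background in each channel, and 0 were saturated. Of 4 root marker loci, all were well above background in both channels of all arrays. Lsi1, Lsi2 and the iron transporter gene YSL15 were called lower, at -2.07, -1.02 and -1.37, and RCc3, a gene of the root, was called higher on 1 probe and lower on the other. Of the 4 leaf photosynthesis loci taken as markers of another tissue, 0 were called on their brightest probe (limma; 0 also at an unadjusted p under 0.05). Their median log2 ratios were 0.26, 0.35 and -1.01 on replicates 1, 2 and 3. On replicate 3 CAB1R and CAB2R were at -2.93 and -1.70, and RBCS2 and RBCS4 at -0.20 and -0.31. Median water signals on replicates 1, 2 and 3 were 244, 247 and 1702 for CAB1R and 179, 167 and 636 for CAB2R. The part of these loci in the results was not tested.

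Under vanadate 6 of the 9 MYB genes rose, 0 fell and 3 were not called (limma; at an unadjusted p under 0.05 also 6 and 0). Among all 22025 tested genes 29.1% were called higher, 20.7% lower and 49.7% either way. Of the 9 genes, 5 were called and at least 2-fold higher, against 8.49% of all tested genes. Nothing is read from these counts, since JAMYB and MYB2 passed the filter only through vanadate. MYB2, with water well above background on 1 array, was 1.93-fold higher without replicate 1 or without replicate 3. Of their 17 probes, 11 were called higher and 3 lower, against 28.4% and 20.9% of all tested probes. The rises were those of MYB30, MYB55, JAMYB, MYB4, MYB2 and MYB6, from 18.7-fold to 1.22-fold. MYB3R-2, MYB91 and MYB48 were not called, but 3 of the 4 probes of MYB48 were called lower. The median log2 ratio of the 9 genes was 1.06, against 0.02 over all tested genes. That median is the value of MYB2, so nothing is read from it either. On replicates 1, 2 and 3 the median was 1.28, 0.62 and 1.27, again the ratios of MYB2. With the strict filter, which leaves out probes not well above background in both channels of every array and so removes MYB30, MYB2 and JAMYB, 3 of the 9 genes were called higher.

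**Figure D1:**
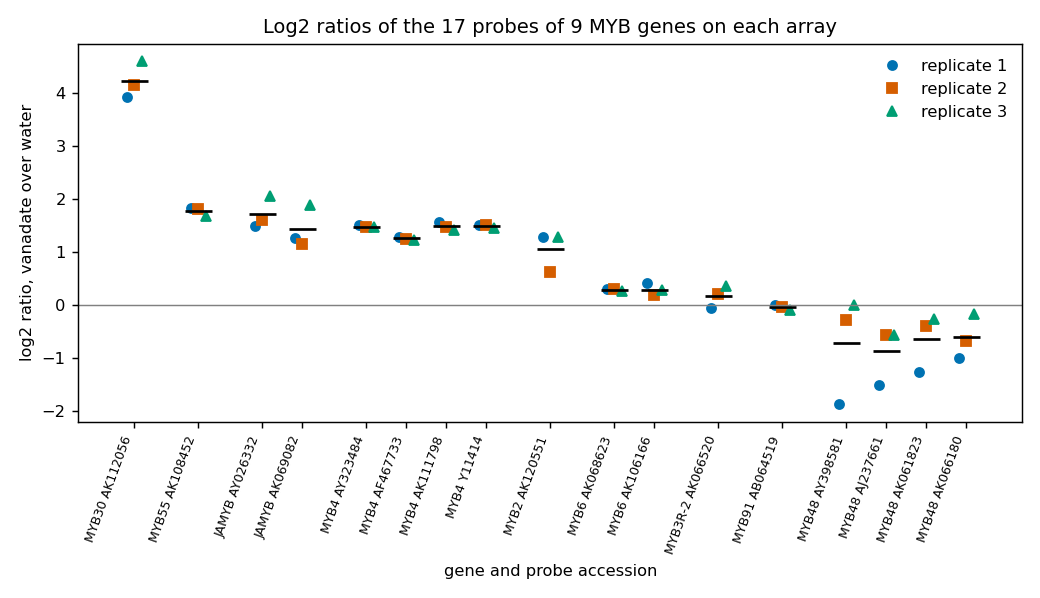
Log2 ratio of vanadate over water (y axis) for the 17 probes of the 9 MYB genes (x axis, by gene and probe accession), with 1 point per replicate array and a black line at the mean of 3 arrays. MYB30 lies between 3.92 and 4.59, the probes of MYB4 lie together, and replicate 1 is the lowest for every probe of MYB48.

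Of the genes tied to cold and heat, MYB30 changed most. It is known in rice as a factor that lowers cold tolerance and represses beta-amylase genes. Its 1 probe, in the coding region and 3' UTR, had log2 levels of 7.40, 7.01 and 7.33 in water and of 11.32, 11.16 and 11.92 in vanadate on replicates 1, 2 and 3. The groups did not overlap, and the lowest vanadate sample stood far above the highest water sample. The log2 ratio was 4.22 ± 0.13 (SE, n = 3 arrays; limma adjusted p = 5.54e-06), an 18.7-fold rise. It was the 52nd highest of the 22025 tested genes. Water gave a signal clearly over background on 2 arrays, and with the processed signals of the scanner software the rise was 36.7-fold.

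MYB4, which raises cold and freezing tolerance when over-expressed in Arabidopsis, was measured by 4 probes. Its brightest probe had log2 levels of 12.55, 12.76 and 12.73 in water and of 14.05, 14.22 and 14.19 in vanadate. All 3 vanadate samples lay above all 3 water samples. Its log2 ratio was 1.47 ± 0.08 (SE, n = 3; limma adjusted p = 2.81e-05), a 2.77-fold rise. The other 2 probes in the coding region and 3' UTR gave 1.48 and 1.48 (limma adjusted p = 3.40e-05 and 2.83e-05). The probe in the 5' UTR and coding region gave 1.25, with a limma adjusted p of 5.49e-05. The 3 arrays hardly differed, with an SD between 0.02 and 0.08 over the 4 probes.

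MYB55 is known in rice for heat tolerance and for raising amino acid metabolism. Its log2 levels were 8.78, 8.90 and 8.60 in water and 10.59, 10.71 and 10.28 in vanadate. These groups did not overlap either. Its log2 ratio was 1.77 ± 0.08 (SE, n = 3; limma adjusted p = 1.69e-05), a 3.41-fold rise, with both channels well above background on all arrays.

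MYB3R-2 has a 3-repeat MYB domain and is known for cold tolerance and for activating mitotic genes such as B-type cyclins. Its log2 levels were 11.71, 11.67 and 11.76 in water and 11.64, 11.88 and 12.12 in vanadate. The vanadate sample of replicate 1 lay below all water samples, so the groups overlapped. The log2 ratio was 0.16 ± 0.10 (SE, n = 3; limma adjusted p = 0.227), with a 95% interval from -0.08 to 0.41.

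**Figure D2:**
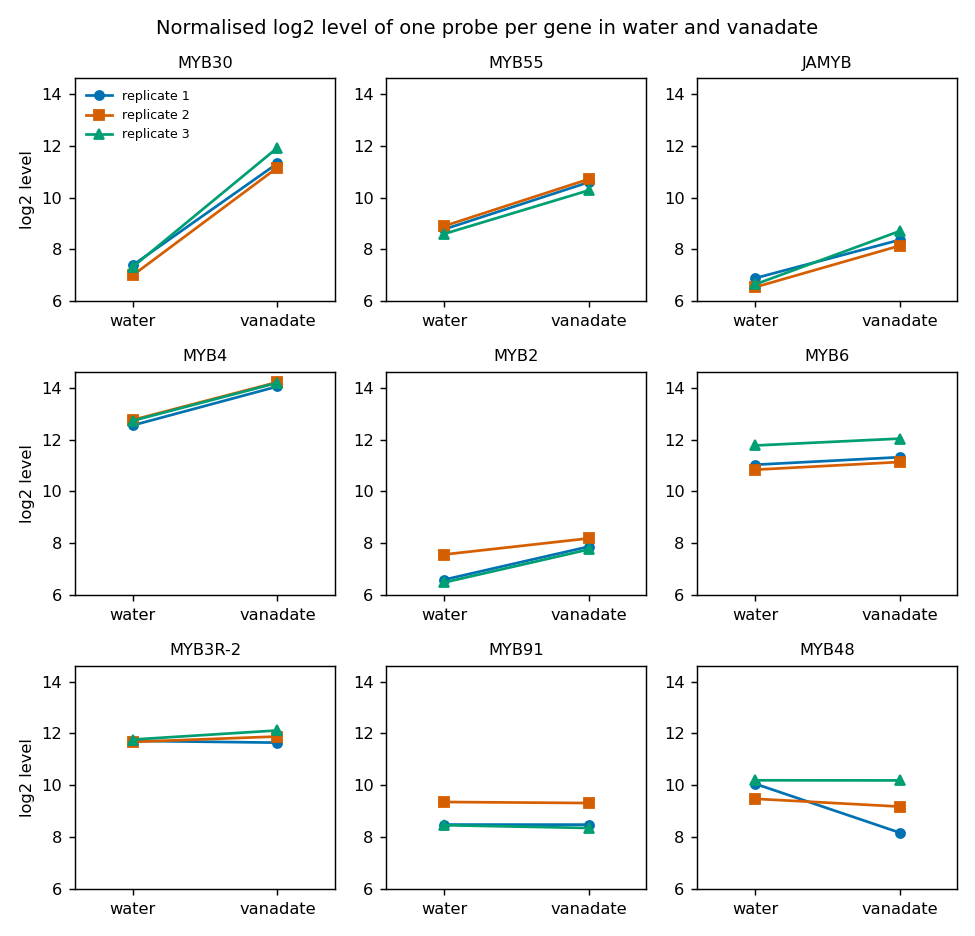
Normalised log2 level of the brightest probe of each of the 9 MYB genes in water and in vanadate, with 1 line per replicate array. The lines of MYB30 climb from about its water levels of 7.01 to 7.40 to over 11, those of MYB91 are nearly flat, and that of MYB48 falls steeply on replicate 1 alone.

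Among the genes tied to drought and salt, MYB2, which raises tolerance of salt, cold and dehydration in rice, rose from a weak signal. Its log2 levels were 6.59, 7.57 and 6.49 in water and 7.87, 8.19 and 7.76 in vanadate. The vanadate samples were all higher than the water samples, and the water sample of replicate 2 stood above the other water samples. That sample was also the only water sample well above background, with a median signal of 300, against 181 and 104 on replicates 1 and 3. Negative control spots in water had median signals of 160, 154.5 and 89 on replicates 1, 2 and 3. The log2 ratios were 1.28, 0.62 and 1.27, with a mean of 1.06 ± 0.14 (SE; limma adjusted p = 0.00159), a 2.08-fold rise. The ratio of 0.62 was that of replicate 2, and the other ratios stand against a dim water signal. The probe passed the filter on dim probes only through vanadate, so its call is not independent of a high vanadate signal. The rise was 5.45-fold with the processed signals.

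MYB6, known for drought and salt tolerance, had the smallest of the 6 rises. On its brighter probe the log2 levels were 11.03, 10.84 and 11.77 in water and 11.32, 11.14 and 12.04 in vanadate. The levels overlapped between groups, while vanadate was higher within each array. The log2 ratios of that probe were 0.29, 0.30 and 0.26, with a mean of 0.28 ± 0.08 (SE; limma adjusted p = 0.0215), a 1.22-fold rise. The dimmer probe also gave 0.28 (limma adjusted p = 0.0317), a call lost under 7 alternatives. The call of the brighter probe was lost under 6 of 13 alternatives, among them the processed signals (0.14; limma adjusted p = 0.199), median centring (limma adjusted p = 0.526) and channels as separate samples (limma adjusted p = 0.575). It was also lost without replicate 1 (limma adjusted p = 0.063) and without replicate 2 (limma adjusted p = 0.14).

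MYB48 is known for drought and salt tolerance and for raising abscisic acid synthesis. On its brightest probe, in the coding region, the log2 levels were 10.06, 9.48 and 10.19 in water and 8.17, 9.18 and 10.19 in vanadate. The groups overlapped, and the vanadate sample of replicate 1 was the lowest. The log2 ratios were -1.88, -0.30 and -0.0049, with a mean of -0.73 ± 0.34 (SE; limma adjusted p = 0.117) and a 95% interval from -1.54 to 0.08. The other 3 probes, in the coding region and 3' UTR, were called lower, at -0.88, -0.65 and -0.62 (limma adjusted p = 0.0106, 0.0308 and 0.0179). In vanadate, the dimmest of these were well above background on 2 arrays and on 1. All 4 probes were below 0 on all 3 arrays and lowest on replicate 1.

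The fall of MYB48 was largest on replicate 1, and how much of its size rests there differed by probe. The probe at -0.88, well above background in both channels of all arrays, had ratios of -1.51, -0.57 and -0.57 on replicates 1, 2 and 3. The call of the probe at -0.62 was lost without replicate 1 (-0.43; limma adjusted p = 0.0707). With the processed signals it was lost too (limma adjusted p = 0.0578), as was that of the probe at -0.65 (limma adjusted p = 0.0907). Without replicate 1 the log2 ratio of its brightest probe was -0.15, and without replicate 3 it was -1.09 and called lower (limma adjusted p = 0.0166). It was called lower without replicate 2 too (-0.94; limma adjusted p = 0.0475), under median centring (-0.88; limma adjusted p = 0.00515), with the slide as a block (limma adjusted p = 0.0301) and when its 4 probes were averaged (-0.72; limma adjusted p = 0.038). Replicate 2 shared the slide of replicate 1. Its ratio was closer to that of replicate 3, on the other slide, on the brightest probe, and closer to that of replicate 1 on the probe at -0.62, with -1.004, -0.68 and -0.17 on replicates 1, 2 and 3. The silicon transporters Lsi1 and Lsi2, markers of root exodermis and endodermis, were lowest on replicate 1 as well. Their log2 ratios were -2.72, -1.75 and -1.73 for Lsi1 and -1.68, -0.66 and -0.72 for Lsi2. YSL15 was lowest there too, at -1.59, -1.15 and -1.36. RCc3 was instead lowest on replicate 3, at 0.79, 0.87 and 0.36 on its brighter probe and -0.13, -0.25 and -0.48 on the other. The part of these cells in the values of MYB48 was not tested.

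MYB91, known to link growth and salt tolerance, was nearly level. Its log2 levels were 8.48, 9.35 and 8.46 in water and 8.48, 9.31 and 8.35 in vanadate, and the groups overlapped. The log2 ratio was -0.05 ± 0.08 (SE, n = 3; limma adjusted p = 0.614). Its 95% interval ran from -0.24 to 0.14, which excludes a 2-fold difference in either direction on this scale.

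JAMYB is induced by jasmonate and by fungal attack in rice. On its brighter probe the log2 levels were 6.89, 6.55 and 6.65 in water and 8.37, 8.14 and 8.71 in vanadate, and the groups did not overlap. In water the signal did not stand well above background on the 3 arrays. For such probes a fold is only a bound, taken against whichever was higher on each array, the dim value itself or the lowest level of any probe well above background. JAMYB was at least 3.00-fold higher on the brighter probe (2.56-fold to 3.39-fold when 1 array was left out) and at least 2.44-fold higher on the other (1.99-fold to 2.98-fold). The log2 ratios were 1.71 ± 0.12 and 1.43 ± 0.15 (SE, n = 3; limma adjusted p = 0.000117 and 0.000562). With the processed signals they were 3.93 and 3.66. Ratios on replicate 3 were the highest for both probes, at 2.06 and 1.89.

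**Figure D3:**
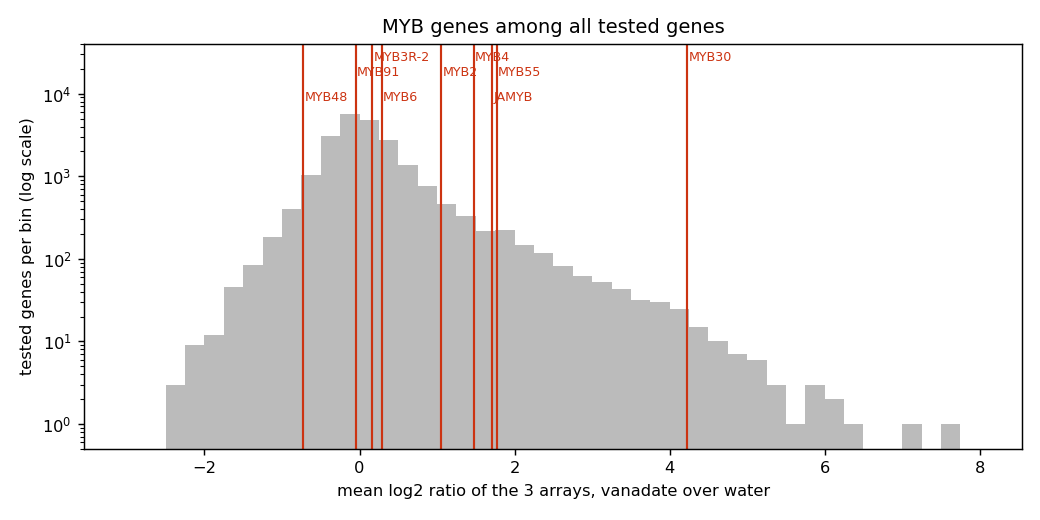
Number of tested genes (y axis, log scale) by mean log2 ratio of vanadate over water (x axis, bins of 0.25), with red lines at the 9 MYB genes. MYB30 stands in the far upper tail at 4.22, 4 other genes lie between 1.06 and 1.77, and MYB48 lies at -0.73.

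Of the genes with 3 ratios nearest to those of MYB30, by Euclidean distance over the log2 ratios of the 3 arrays, Os06g0252300 was at 0.206 and Os08g0482600 at 0.213. The third was at 0.227. The files pair these IDs with no gene description. The fourth nearest, at 0.269, was JAZ9, named here after its values were seen. JAZ9 is a jasmonate repressor known in rice to bind MYB30. Its log2 ratios were 4.18, 4.19 and 4.52, and its mean of 4.29 ± 0.10 (SE; limma adjusted p = 2.36e-06) was a 19.6-fold rise. There were 70 genes within a distance of 1 of MYB30. The 3 ratios are replicates of the same comparison, so a small distance means a rise of similar size. A link between JAZ9 and MYB30 was not tested.

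Other rice MYB genes moved both ways. Of 11 loci on this list, 10 were tested, 3 rose, 3 fell and 4 were not called, beside 29.1% higher and 20.7% lower among all tested genes, and the median log2 ratio was -0.10. ARM1, known as an arsenite-responsive MYB factor, had a log2 ratio of 4.35 ± 0.10 (SE; limma adjusted p = 2.31e-06). In water its signal was dim on all 3 arrays in the same sense, and it was at least 17.5-fold higher. MYB110 rose 2.36-fold, and MYBS3, a cold-responsive repressor of an amylase gene, rose 1.49-fold on its brightest probe and on all 5 probes. MYB103L, known for control of secondary wall cellulose, fell by 0.71 ± 0.13 (SE) on the log2 scale on its brightest probe. MYBS1, an activator of the same amylase gene, and GAMYB, which acts in gibberellin signalling, fell by 0.33 and by 0.37, GAMYB on 2 of its 5 probes. In vanadate MYBS1 was well above background on 1 array, so it passed the filter only through water. The call of GAMYB was lost without replicate 1 (limma adjusted p = 0.149), without replicate 2 (limma adjusted p = 0.114) and with its 5 probes averaged (limma adjusted p = 0.0964). That of MYBS1 was lost without replicate 2 (limma adjusted p = 0.0881) and under median centring (limma adjusted p = 0.0694), where that of MYBS3 was lost too (limma adjusted p = 0.0665).

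**Figure D4:**
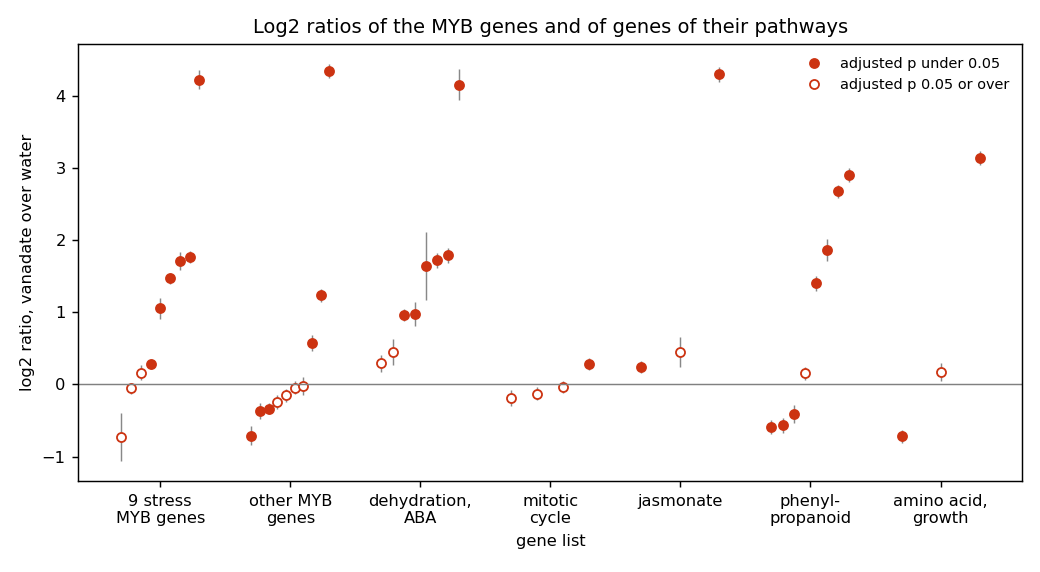
Log2 ratio of vanadate over water, with its SE, for the brightest tested probe of each gene, by list (x axis), with filled points for an adjusted p under 0.05. The dehydration list holds 6 rises and 0 falls, while the other MYB and the phenylpropanoid lists hold both rises and falls. Of all tested genes 29.1% were called higher and 20.7% lower. Among the dehydration rises, NCED4 and RAB16B passed the filter only through vanadate. JAMYB, MYB2 and ARM1 did so too, and MYBS1 passed only through water.

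Several genes of the dehydration and abscisic acid response are known to be raised by MYB2, MYB6 or MYB48. Of 9 loci, 8 were tested, 6 rose, 0 fell and 2 were not called, beside 29.1% higher and 20.7% lower among all tested genes. The median log2 ratio was 1.31. Neither the count nor the median is read as a direction, since NCED4, RAB16B and RAB16D passed the filter only through vanadate. RAB16B was called higher, at log2 ratios of 0.80, 0.84 and 3.28 on replicates 1, 2 and 3. Without replicate 3 its ratio was 0.82 and still called (limma adjusted p = 0.00027). NCED5, an enzyme of abscisic acid synthesis, had log2 ratios of 3.53, 4.12 and 4.81 and rose 17.8-fold (limma adjusted p = 3.25e-05), or 40.7-fold with the processed signals, with water well above background on 2 arrays. LEA3, a protective protein of drying cells, rose 3.45-fold (limma adjusted p = 3.93e-05) on its brightest probe and 1.58-fold on a dim one. NCED4 was at least 2.81-fold higher from a dim water signal. With the strict filter, which removes NCED4, NCED5, RAB16B and RAB16D, 3 genes of this list were called. DREB1A, a cold-induced factor, was not called, at log2 ratios of -0.05, 0.43 and 0.96, but was called higher without replicate 1 (0.69; limma adjusted p = 0.02).

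The mitotic genes taken for MYB3R-2 had a median log2 ratio of -0.08. Of 4 loci, 1 was called higher and 0 lower, beside 29.1% higher and 20.7% lower among all tested genes. CDKB2;1, a mitotic kinase, was the one called, at 0.29 ± 0.09 (SE; limma adjusted p = 0.0338). That call was lost with the processed signals (limma adjusted p = 0.107), median centring (limma adjusted p = 0.503) and without replicate 2 or 3 (limma adjusted p = 0.251 and 0.0556). The B-type cyclins CYCB1;1, CYCB2;1 and CYCB2;2 were not called, at -0.13, -0.04 and -0.19. CYCB1;1 was called lower with the processed signals (-0.31; limma adjusted p = 0.0478), a scale on which the median of all tested genes was -0.12.

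MYB30 and MYB4 are known to regulate some of the phenylpropanoid loci. Of the 8 tested, 4 rose, 3 fell and 1 was not called, beside 29.1% higher and 20.7% lower among all tested genes. The median log2 ratio was 0.78. The loci of phenylalanine ammonia-lyase, the entry enzyme of the pathway, split. Os04g0518400 rose 7.49-fold, or 14.4-fold with the processed signals, and Os05g0427400 rose 3.64-fold. Os02g0627100 rose 2.64-fold on its brighter probe and 5.65-fold on the other. Os04g0518100, Os02g0626100 and Os02g0626400 were called lower, at -0.59, -0.56 and -0.41, and all 3 of these calls were lost under median centring (limma adjusted p = 0.291, 0.149 and 0.279). The last was also lost with the processed signals (limma adjusted p = 0.0626), without replicate 1 (limma adjusted p = 0.126) and without replicate 3 (limma adjusted p = 0.0809). 4CL5, which activates the resulting acids, rose 6.38-fold (limma adjusted p = 7.95e-06). The other 4CL locus of this list, 4CL3, was not called, at 0.15 (limma adjusted p = 0.181). Close copies of the lyase can share probe signal, and this was not checked.

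Of 3 jasmonate loci, 2 were called higher, beside 29.1% of all tested genes, with a median log2 ratio of 0.45. Beside JAZ9, MYC2, a jasmonate-response factor, was called higher at 0.25 ± 0.08 (SE; limma adjusted p = 0.0423), a call lost with the processed signals (0.0020; limma adjusted p = 0.985), without replicate 1 (limma adjusted p = 0.125) and without replicate 2 (limma adjusted p = 0.237). AOS2, an enzyme of jasmonate synthesis, was not called, with a dim water signal and ratios of -0.0022, 0.23 and 1.14 on replicates 1, 2 and 3. Of 3 amino acid and growth genes, 1 rose and 1 fell, beside 29.1% higher and 20.7% lower among all tested genes. Their median log2 ratio was 0.17. GAD3, a glutamate decarboxylase tied to MYB55, rose 8.78-fold, with log2 ratios of 3.07, 2.98 and 3.36 (limma adjusted p = 5.50e-06). GS1;2, a cytosolic glutamine synthetase also tied to MYB55, fell by 0.72 ± 0.08 (SE) on the log2 scale (limma adjusted p = 0.000912). SLR1, the DELLA repressor of growth placed downstream of MYB91, was not called, at 0.54, 0.08 and -0.10.

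**Figure D5:**
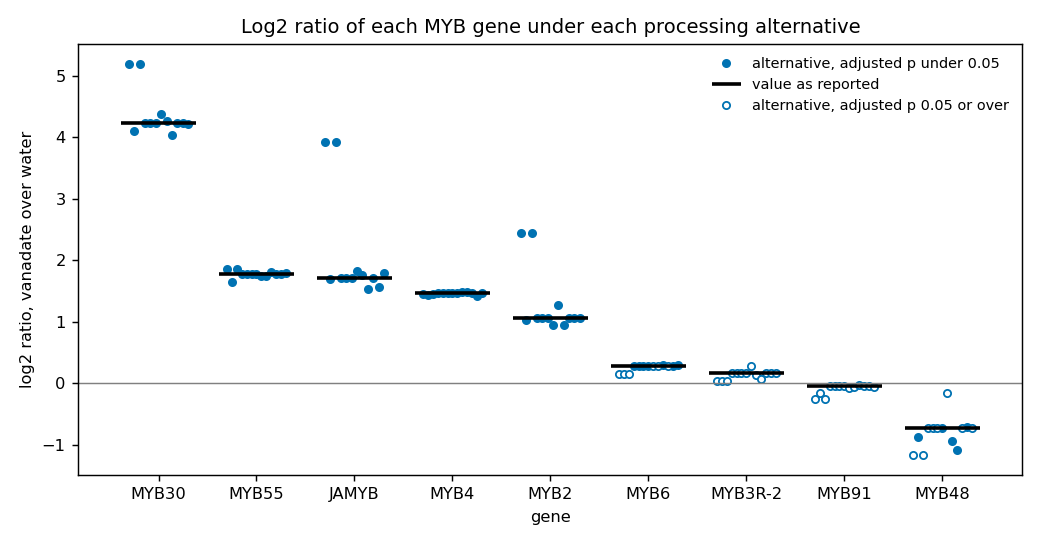
Log2 ratio of vanadate over water (y axis) of each MYB gene (x axis) as reported (black line) and under each processing alternative (points, filled for an adjusted p under 0.05). MYB30, JAMYB and MYB2 are higher with the processed signals, at 5.20, 3.93 and 2.44, while MYB4 and MYB55 barely move.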

How the data were processed

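The deposited scanner files hold the spot and local background intensity of each dye, uncorrected, and a processed intensity that Agilent Feature Extraction 10.7.1.1 had background-subtracted and dye-normalized, per the file headers. The authors' deposited value table holds log2 values, uncentred, with scale and direction not stated; 99.1% to 99.2% of its values per array lay within 0.001 of log2 processed Cy5 over Cy3.

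Median intensities were corrected here by normexp (offset 50) and normalized by loess in limma 3.58.1 (R 4.3.3), without control and outlier spots, and averaged per probe. Tested probes needed a value on the 3 arrays and, on 2 of them or more, 1 channel well above background: 31158 of 42418 probes. The mean log2 ratio was tested with lmFit and eBayes, whose moderated SE is given. Log2 levels follow Aquantile scaling. The fit was checked on simulated data. Alternatives covered background, normalization, filter, spread, slide, pairing, probe choice and each array left out.

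Replicates 1 and 2 were hybridised on one slide and scanned on one day, replicate 3 on another of each. Pearson's r between arrays, across tested probes (not independent replicates), was 0.93, 0.89 and 0.92. Precision is limited by having 3 arrays.

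Genes, lists and tests were chosen with earlier results of these data known. The text names every MYB member, the 3 largest calls of each other list and calls against a list's direction, and, of the 3 genes nearest to MYB30, which the files do not name, 2 by ID; other names were added after their values were seen. Gene names are background knowledge: a RefSeq table (assembly ASM3414082v1) gave 4 of the 9 names to a gene on the chromosome of the locus, 4 were not found, and it lists myb30 as a synonym of MYBS3, another locus. Sequences were not used here.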

Additional observations from a re-analysis of the deposited data

How the results depend on the processing

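MYB4 and MYB55 kept their direction and call under 13 alternatives, and MYB30, JAMYB and MYB2 under the 12 that left them tested; MYB3R-2 and MYB91 were not called under any of 13. The strict filter left 3 MYB genes called higher. MYB48 made 1 called lower under median centring, with the slide as a block and with probes averaged, and leaving out 1 array gave 0 to 1. With channels as separate samples, so with no replicate block for the shared array, 3360 genes were called higher and 1438 lower, and 5 MYB genes higher; the calls of MYBS1, GAMYB, GS1;2, CDKB2;1, MYC2 and Os02g0626400 were among those lost there. Median centring gave 4113 higher and 3165 lower. The processed signals gave 4977 higher and 6834 lower, and the authors' deposited values gave 4977 and 6833; there the median log2 ratio of all genes was -0.12, against 0.02. Without 1 array 2730 to 3758 genes were called lower, the fewest without replicate 2. Among uncalled genes, the sign of MPS (-0.090 to 0.029), MYB61 (-0.18 to 0.14), CYCB2;1 (-0.076 to 0.029) and SLR1 (-0.0085 to 0.31) turned with the array left out, and that of LHY (0.017) with probes averaged. The causes were not tested. The background of negative control spots was an alternative chosen after seeing the data. Water signals dim on 1 or more arrays limit MYB30, JAMYB and MYB2, whose log2 ratios were 5.20, 3.93 and 2.44 with the processed signals, where background and dye normalization both differ.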
